A study of Caenorhabditis elegans with 4 samples.

Results

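CES-1 binding regions that were called separately in each of 2 ChIP replicates are described here by position, width, score and spacing. ChIP-seq sequences the DNA that is pulled down with a protein. A region of the combined list, which the authors called on the merged reads of both replicates, was counted as a member when it shared at least 1 bp with a region of the replicate 1 list and also with a region of the replicate 2 list. Members were thus chosen by the authors' own calls, and 442 of 2713 combined regions (16.3%) met the rule. Of the remainder, 714 overlapped the replicate 2 list only, 139 the replicate 1 list only and 1418 neither list. Of all combined regions, 21.4% overlapped a replicate 1 region and 42.6% a replicate 2 region. These shares are the background of the rule, and nothing is read from the count of members against them.

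CES-1 is a transcription factor of the Snail family, whose members bind DNA through C2H2 zinc fingers and mostly act as repressors. In C. elegans embryos it is known for blocking the programmed death of sisters of the NSM pharyngeal neurons, where it represses egl-1, the BH3-only activator of cell death, and is itself held down by the bZIP factor CES-2. Snail proteins recognise short E-box sequences, and a region called by ChIP marks where the protein, or a complex that contains it, was crosslinked to DNA. A region called in both replicates is therefore a place where enrichment passed the caller's threshold in each library on its own.

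All libraries came from L3 hermaphrodite larvae of strain OP174, which is unc-119(ed3) and carries the transgene wgIs174, a ces-1 copy with TY1, EGFP and FLAG tags and an unc-119 rescue, introduced by bombardment. The 2 ChIP libraries were pulled down with a goat antibody against GFP, and the 2 input libraries hold DNA of lysate set aside before the pull-down. Whole larvae were used, so a region called here is not tied to a tissue, and no ChIP of untagged larvae was analysed here. ChIP replicates 1 and 2 held 873921 and 1320404 uniquely mapped reads, and the input replicates 1535649 and 907103. These were 11.8% and 11.7% of all reads of the ChIP replicates, but 66.8% and 73.1% of those of the inputs. The labels do not say whether the replicates were separate cultures, and 1 merged input served as the control of all lists, so binding and a feature of the shared control cannot be told apart where both replicates were called. Coordinates are WormBase WS220. The gene table at hand is of another assembly, so it was not used to place genes, and no genome of that build was used here. No region is therefore assigned to a gene, exon, intron or sequence.

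The regions called in both replicates carried the top of the combined list. The score used here is −log10 of the authors' q-value, so a higher score is a smaller q-value. The 442 regions had a median combined score of 7.55 (95% interval of the median 6.94 to 7.92), against 2.53 (2.53 to 2.56) for the 1418 regions called in neither replicate and 3.10 over the whole list. They included all 50 highest-scoring combined regions, 98 of the highest 100, 187 of the highest 200 and 318 of the highest 400. Because the combined list was called on the sum of both replicates' reads, the rule and these scores share their reads, and the figures are a description.

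Within the members, many replicate scores lay near the lower limit of 2, which corresponds to a q-value of 0.01. Replicate 1 scores ran from 2.01 over a median of 2.97 to 87.1, and replicate 2 scores from 2.01 over a median of 3.84 to 116. In 137 members the replicate 1 score was under 2.5, in 85 the replicate 2 score was, and in 44 both were. Both scores were above 5 in 59 members and above 10 in 14. Replicate 2, which had more reads, gave the higher score in 314 of 442 members (71.0%, 95% Wilson interval 66.6 to 75.1). The part of read depth in that difference was not tested.

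The 3 regions with the highest smaller replicate score were taken from each chromosome, so their spread over chromosomes follows from the choice. On V, the region V:9768660-9770149 had scores of 87.1 and 116 in replicates 1 and 2, V:9764902-9768416 had 20.9 and 36.7, and V:6267385-6267821 had 11.9 and 15.5. On X, X:16929399-16931880 had 17.2 and 21.1, X:14525557-14526142 had 16.9 and 20.8, and X:11605504-11606582 had 15.7 and 18.6. Replicate 2 was higher at each of these 6 regions.

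On III, the region III:10435941-10436326 had scores of 14.0 and 20.1, III:7854428-7854815 had 11.5 and 16.3, and III:3867380-3867765 had 11.5 and 14.5 in replicates 1 and 2. On I, the region I:4171991-4172627 had 15.0 and 18.0, I:6799475-6799909 had 13.2 and 16.5, and I:801202-801797 had 6.79 and 11.1. On IV, the leading scores were 12.8 and 15.6 at IV:14032619-14034584, followed by 9.23 and 15.5 at IV:13240478-13240883 and 8.64 and 8.74 at IV:15016888-15017343. On II, they were 11.8 and 16.0 at II:5543310-5544292, 9.10 and 18.6 at II:5844637-5845180 and 8.33 and 14.8 at II:10758818-10759348. The third-ranked region of chromosome I thus had a lower replicate 1 score than that of every other chromosome.

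The largest differences between the replicates were excesses of replicate 2 at high-scoring regions. Replicate 2 exceeded replicate 1 by 28.95 at V:9768660-9770149 and by 15.8 at V:9764902-9768416. Smaller excesses were 9.54 at II:5844637-5845180, 7.54 at X:16681798-16682273 and 7.04 at X:11093861-11094315. In the other direction the differences were smaller. Replicate 1 scored 7.93 and replicate 2 scored 4.02 at III:312884-313264. The corresponding scores were 9.16 and 5.86 at IV:17232886-17233815, 6.51 and 3.33 at II:1341443-1341845, 4.51 and 2.17 at IV:6321752-6322063, and 4.48 and 2.18 at IV:13218028-13218685.

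The combined score of a typical member was close to the sum of its replicate scores on chromosomes II to V and X, and well above it on I. On II to V and X, the combined score minus the sum had a median of 0.33 (quartiles −0.038 and 0.94, n = 416). It ran from −9.11 to 22.1, and 300 of 416 members lay above their sum. The 22.1 was at V:9764902-9768416, which spans 2 regions in each replicate list. The sum takes only the stronger region of each list, so it leaves out part of such a member. The per-chromosome medians on II to V and X were between 0.13 on IV and 0.51 on V. On chromosome I the median difference was 4.03 (quartiles 2.59 and 5.83, n = 26), and 26 of 26 members lay above their sum. The lowest and highest differences on I were 0.66 and 11.8. The contrast was present within bands of combined score. Among members scoring 6 to 10, the median difference was 2.57 on I (n = 11) and 0.50 on the other chromosomes (n = 159). Above 10 it was 5.78 (n = 14) and 1.04 (n = 120). The bands do not hold the score equal. Median combined scores on I and elsewhere were 8.54 and 7.54 between 6 and 10, and 16.3 and 12.8 above 10. The difference was larger in the higher band on the other chromosomes too. I:4171991-4172627, for example, had a combined score of 44.8 with replicate scores of 15.0 and 18.0, whereas III:10435941-10436326 had 35.9 with 14.0 and 20.1. The calls that the rule used rest on the same q-values, so these values carry no test, and what sets chromosome I apart was not tested.

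**Figure D1:**
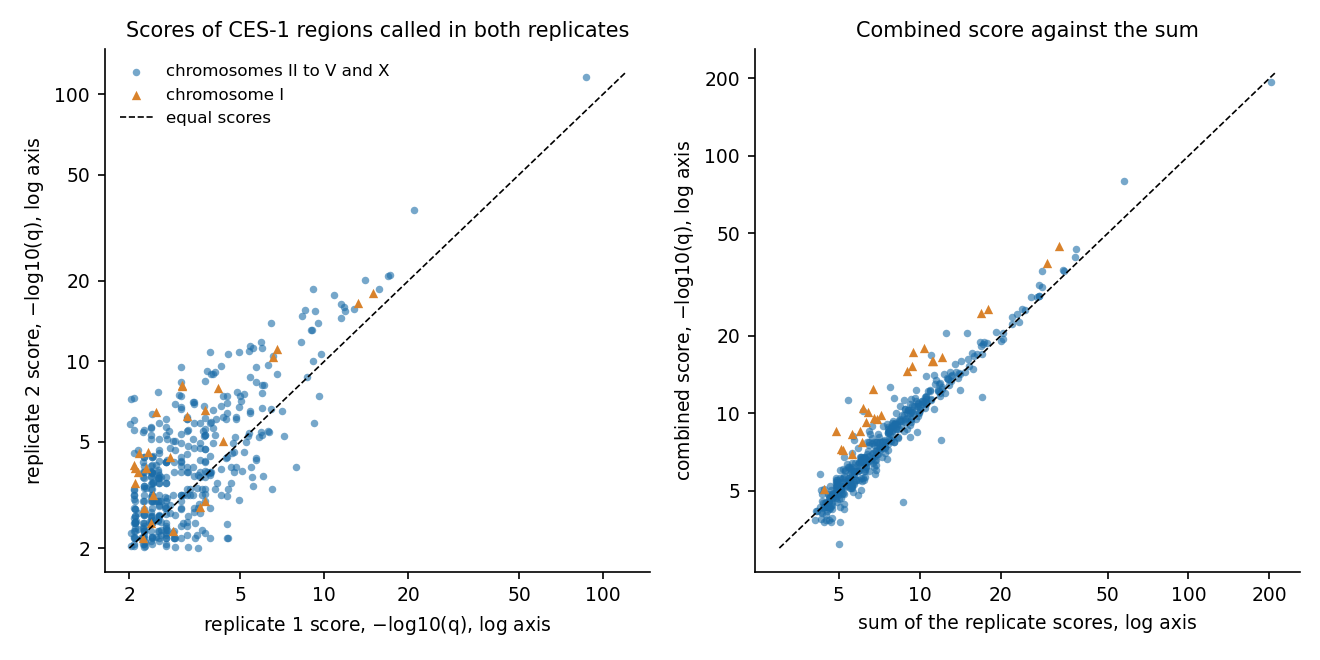
Each point is 1 of the 442 CES-1 regions called in both replicates, on logarithmic axes, with chromosome I as triangles. Left, replicate 2 score against replicate 1 score, where 314 points lie above the line of equal scores. Right, combined score against the sum of the replicate scores, where 26 of 26 chromosome I regions and 300 of 416 others lie above the line.

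Chromosome I was also under-represented among the members. It held 26 of them (5.88%, Wilson 4.05 to 8.48), against 299 of the 1418 regions called in neither list (21.1%, 19.0 to 23.3) and 14.7% of all combined regions. In density this was 1.74 members per Mb on I, against 4.39 per Mb on II to V. Regions called in neither, a larger set, stood at 20.0 per Mb on I and 12.3 per Mb on II to V. Densities are per Mb from position 1 to the end of the last region listed on the chromosome. A low share on I was not particular to members. Chromosome I held 2 of the 139 regions of replicate 1 only (1.44%) and 73 of the 714 of replicate 2 only (10.2%). Chromosome IV went the other way, with 88 members (19.9%, 16.5 to 23.9) against 166 regions called in neither (11.7%, 10.1 to 13.5) and 14.9% of all combined regions.

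Chromosome X held 121 members (27.4%, 23.4 to 31.7), at 6.86 per Mb the densest, against 20.7% (18.7 to 22.9) of the regions called in neither and 21.9% of all combined regions. The intervals of members and of regions called in neither did not overlap on X. Such intervals cover counting error only and take regions as independent, so their overlap or separation is no test. With chromosome I left out of both sets, X held 29.1% of members and 26.3% of the regions called in neither. Over all chromosomes, X held 37 of the 139 regions of replicate 1 only (26.6%), a share close to that of members. Of the 714 regions of replicate 2 only it held 141 (19.7%). Of the 442 members, 14.0% lay on II, 16.5% on III and 16.3% on V. Of the 1418 regions called in neither, 17.6% lay on II, 14.8% on III and 14.0% on V. The intervals of the 2 sets overlapped for II, III and V.

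In the bands of combined score from 4 upward, a smaller share of the regions of chromosome I was in both replicate lists. Since combined scores on I lay further above the sum of the replicate scores, a member with a given combined score there tended to have lower replicate scores, and the shares by score are no separate evidence of a difference. Between scores of 4 and 6, 1 of 69 regions on I was called in both, against 128 of 396 on the other chromosomes (32.3%, 27.9 to 37.1). Between 6 and 10 it was 11 of 30 on I (36.7%, 21.9 to 54.5) and 159 of 197 elsewhere (80.7%, 74.6 to 85.6). Above 10 it was 14 of 18 on I and 120 of 122 elsewhere. Among the other 5 chromosomes, the share between 6 and 10 ran from 70.0% on II over 73.7% on III, 82.5% on IV and 85.7% on X to 87.9% on V, with overlapping intervals.

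**Figure D2:**
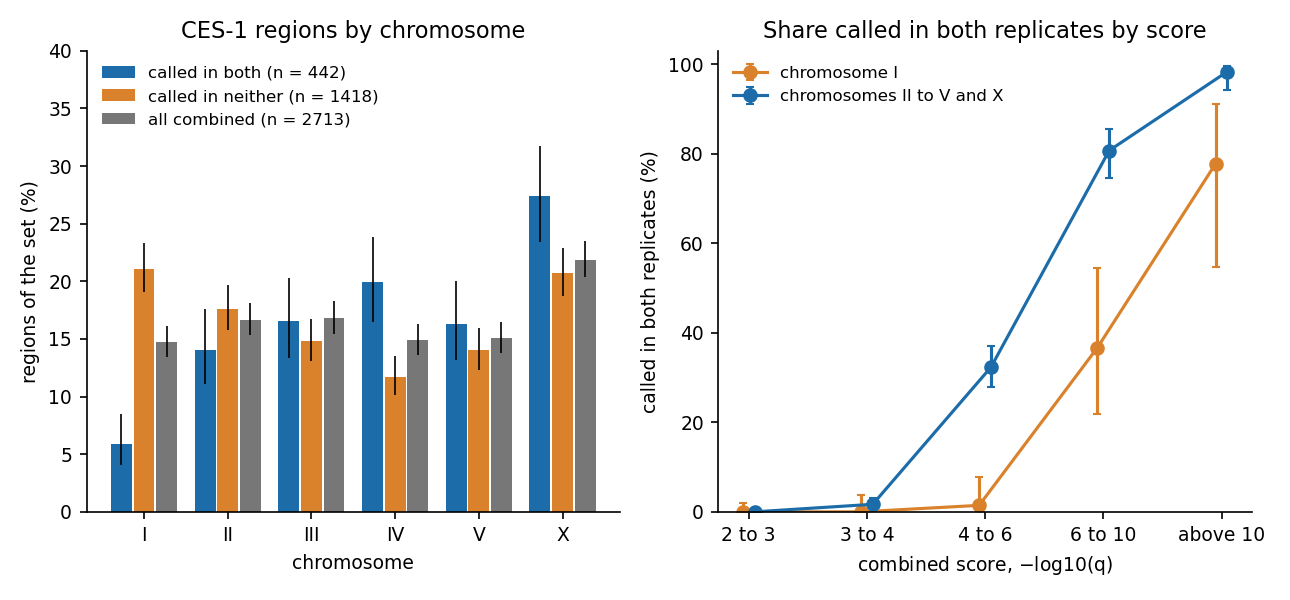
Left, percent of each set of CES-1 regions on each chromosome, for regions called in both replicates, in neither, and all combined regions, with 95% Wilson intervals as bars. Chromosome I holds 5.88% of the regions called in both and 21.1% of those called in neither. Right, percent called in both replicates by band of combined score, with Wilson intervals, where chromosome I is lower in the 3 bands from a score of 4; combined scores on I also lay further above the sum of the replicate scores (median difference 4.03, against 0.33 elsewhere).

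The edge of the set can be read from the weakest members and the strongest regions outside it. The lowest combined scores among members were 3.10 at III:12558026-12558287, 3.79 at X:9958577-9958943, 3.80 at X:8773723-8773972, 3.80 at IV:13231480-13231707 and 3.85 at III:10634032-10634336. Their replicate scores ranged from 2.02 to 2.65. The highest combined scores among regions called in neither list were 6.24 at I:7518222-7518913, 5.99 at X:8997840-8998330, 5.81 at I:6677012-6677440, 5.80 at I:9199940-9200379 and 5.26 at IV:8794931-8795319. Of the 20 highest in that set, 16 lay on chromosome I. The ranges overlapped, with 156 members scoring below the highest region called in neither, and 305 regions called in neither scoring above the lowest member. Each count is set by 1 extreme region. The second-lowest member scored 3.79, and only 1 region called in neither scored above 6. Between scores of 4 and 6 lay 129 members and 63 regions called in neither.

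A wider region meets an overlap rule more easily, so the widths of members are given as a description. They ran from 204 bp over a median of 388.5 bp to 3515 bp, against 1 bp, 175 bp and 1084 bp for regions called in neither list. None of the 442 members was under 200 bp wide, which allows a share of up to 0.862% by the Wilson interval, whereas 864 of the 1418 regions called in neither were (60.9%). Widths of 500 bp or more were found in 113 members (25.6%) and in 17 regions called in neither (1.20%). Members covered 201050 bp, or 29.3% of all bases of the combined list with 16.3% of its regions. On every chromosome the median width of members, from 366 bp on II to 428 bp on I, exceeded that of regions called in neither, from 137.5 bp on III to 215 bp on I.

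Within bands of combined score, members were not consistently wider than the other classes. Between combined scores of 4 and 6 the median width was 303 bp for members (n = 129), 302 bp for regions of replicate 2 only (n = 231), 323.5 bp for those of replicate 1 only (n = 42) and 335 bp for those called in neither (n = 63). Between 3 and 4 it was 265 bp for the 9 members and 233 bp for the 308 regions called in neither. The bands do not hold score or chromosome equal. Median scores of members and of regions called in neither were 5.07 and 4.38 in the band from 4 to 6, and 3.85 and 3.30 below it. On chromosome I, where regions called in neither were widest, 1 of 69 regions between 4 and 6 was a member. Across the 442 members, width and combined score had a Spearman correlation of 0.66, and across regions called in neither of 0.51. These points share libraries, caller and threshold. The narrowest members were III:4035057-4035260 with 204 bp, II:8835946-8836151 with 206 bp, IV:14356219-14356425 with 207 bp, II:5947459-5947668 with 210 bp and V:18967738-18967948 with 211 bp. Their combined scores lay between 4.33 and 5.14.

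**Figure D3:**
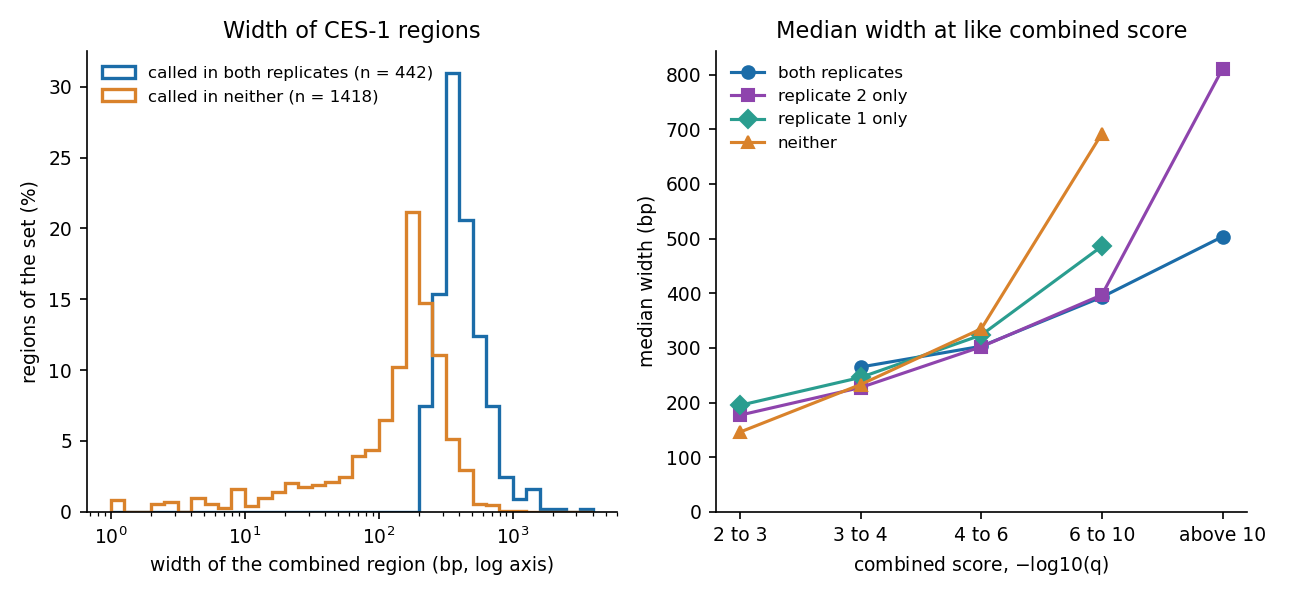
Left, distribution of region width on a logarithmic axis for CES-1 regions called in both replicates and in neither, as percent of each set; members start at 204 bp. Right, median width by band of combined score for the 4 classes of regions, which lie between 302 and 335 bp at scores from 4 to 6. Above 6, the points rest on 51 and 6 regions for replicate 2 only, on 5 for replicate 1 only and on 1 for neither.

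The rule asked for an overlap of the combined region with a call of each replicate, so nearby replicate calls follow in large part from it, and their geometry is given as a description. In 357 of 442 members (80.8%, Wilson 76.8 to 84.2) every replicate region lay wholly within the combined one. The replicate 1 region covered a median of 74.6% of the member, the replicate 2 region 78.8%, and the part common to both 62.2%. The common part reached 25% or more of the member in 413 of 442. Some calls were very short. At IV:14356219-14356425 the replicate 2 call was 3 bp wide and covered 1.45% of the member, the lowest share for replicate 2. The midpoints of the replicate regions were a median of 38.25 bp apart, and within 50 bp of each other in 287 members and within 200 bp in 428. In 441 members at least 1 base was in all 3 lists. The exception was III:10580150-10580382, where the replicate 1 call covered 30.0% and the replicate 2 call 33.9% of the combined region without touching each other.

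**Figure D4:**
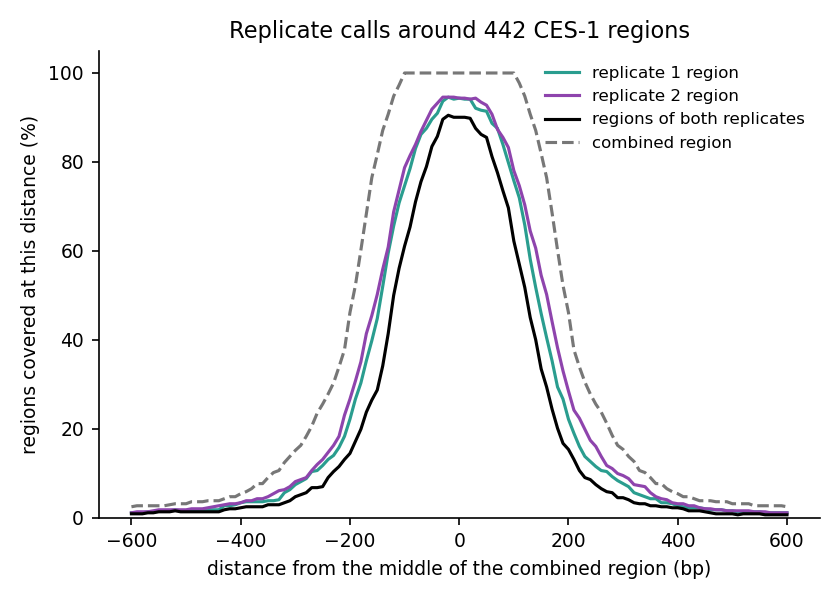
Percent of the 442 members covered by a replicate 1 call, a replicate 2 call, both, or the combined region, against distance from the middle of the combined region in bp. At the middle, 94.3% of members are covered by each replicate and 90.0% by both, and at 200 bp on either side between 14.5% and 15.4% are covered by both.

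Most members held 1 region of each replicate (434 of 442), and 8 held more than 1 region of at least 1 list. In 5 of these 8 both replicates split the member into 2 regions. V:9764902-9768416 held regions scoring 20.9 and 10.7 in replicate 1 and 36.7 and 15.7 in replicate 2, in order along the chromosome. X:16929399-16931880 held 3.15 and 17.2 in replicate 1 and 2.32 and 21.1 in replicate 2. At IV:14032619-14034584 the scores were 3.24 and 12.8 in replicate 1 and 3.15 and 15.6 in replicate 2. At IV:8431552-8433056 they were 2.08 and 2.02 in replicate 1 and 3.33 and 2.12 in replicate 2.

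At X:11030901-11032214 the order of the split regions was not shared, with 2.40 and 4.88 in replicate 1 and 7.68 and 2.32 in replicate 2. The same one of the pair was thus the stronger in both replicates in 4 of the 5 members. Split in 1 list only were IV:11593363-11594660, X:4208630-4209407 and IV:17232886-17233815. The gaps between split regions ran from 204 to 1658 bp. In the combined list no 2 regions lay closer than 204 bp. The 5 widest members were the 4 split ones on V, X and IV just given with matching order, at 3515, 2482, 1966 and 1505 bp, and V:9768660-9770149 with 1490 bp.

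Over all chromosomes the median gap to the nearest combined region was smaller for members than for regions called in neither list, but not on X. It was 4604.5 bp for members (95% interval 3572 to 5624), 6414.5 bp for regions called in neither (5635 to 7388) and 5818 bp over all combined regions. A smaller gap was not particular to members. The median was 3746 bp (2821 to 6090) for regions of replicate 1 only and 5984 bp (4823 to 7632) for those of replicate 2 only. Another combined region lay within 1 kb of 72 members (16.3%, Wilson 13.1 to 20.0) and of 222 regions called in neither (15.7%, 13.9 to 17.6), with overlapping intervals. The intervals of the median gap of members and of regions called in neither lay next to each other without overlap. This is no test because they take regions as independent. On X the median gap was 7786 bp for members (3925 to 11145) and 5506 bp for regions called in neither (3931 to 7707), and on I to V it was smaller for members on each chromosome. The intervals of the 2 sets overlapped on every one of the 6 chromosomes. Within 2 kb the shares were 32.4% (28.2 to 36.9) for members and 26.2% (23.9 to 28.5) for regions called in neither. They were 35.3% (27.8 to 43.5) for replicate 1 only and 28.0% (24.8 to 31.4) for replicate 2 only. Within 1 kb, the nearest region was called in neither list for 36 of the 72 members (50%, 38.7 to 61.3). It was a member for 19 (26.4%, 17.6 to 37.6). For the 222 regions called in neither it was called in neither for 130 (58.6%, 52.0 to 64.8) and a member for 34 (15.3%, 11.2 to 20.6). Close neighbours of the same class can enter these counts from both sides, so the intervals are too narrow. Over all combined regions, 52.3% were called in neither list and 16.3% were members.

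Members within 1 kb of each other formed 10 neighbouring pairs. The closest pair was that on V, with a gap of 243 bp. It was followed by II:10760790-10761136 and II:10761580-10761947 with 443 bp, whose combined scores were 5.42 and 9.16. IV:2052339-2052797 and IV:2053269-2054017 were 471 bp apart and scored 12.0 and 7.02. II:6148314-6148913 and II:6149446-6149902 were 532 bp apart and scored 13.96 and 7.13. V:1150268-1150689 and V:1151283-1151968 were 593 bp apart and scored 16.0 and 14.1.

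Groups of 3 members with gaps of at most 5 kb were found at 7 places and no larger group was. They spanned II:10758818-10761947, III:668135-675738, III:3862967-3867765, IV:2048722-2054017, V:1150268-1155390, V:9764902-9772459 and V:20776796-20782571. The last lay in the only 100 kb window with 5 members, V:20700001-20800000, whose members scored 8.72, 4.04, 12.98, 11.1 and 8.52 in order along the chromosome. On the other chromosomes the densest 100 kb windows held 4 members on IV and X, 3 on II and III and 2 on I. Between members alone the median gap was 57276.5 bp.

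On the autosomes the share of members in chromosome centres did not differ from that of regions called in neither list beyond the intervals. The central 50% of the extent held 195 of 321 autosomal members (60.7%, Wilson 55.3 to 65.9), 707 of 1124 regions called in neither (62.9%, 60.0 to 65.7) and 62.6% of all combined regions. C. elegans autosomes have gene-rich centres with little recombination and repeat-rich arms. The share in the centre was 69.4% of members on V, 69.2% on I, 66.1% on II, 56.8% on IV and 49.3% on III, and for regions called in neither 67.3%, 61.9%, 63.6%, 61.4% and 60.5% in the same order. The intervals of the 2 sets overlapped on each chromosome, including III (38.2 to 60.5 and 53.7 to 66.8). On X the centre held 50.4% of members (41.6 to 59.2) and 56.8% of regions called in neither (51.1 to 62.3). When each chromosome was divided into 10 equal bins, bin 6 of V held the most members, 19 of its 72. It was also the fullest bin of V for regions called in neither, with 40 of 199.

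**Figure D5:**
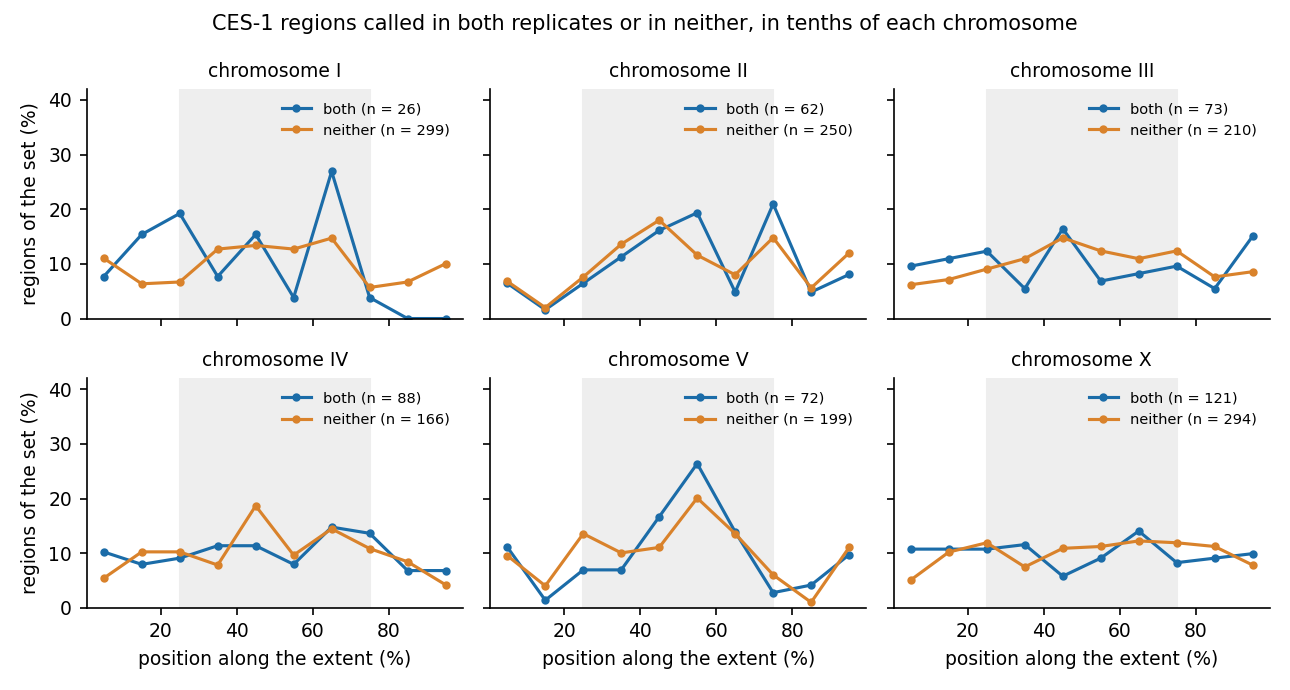
Percent of the CES-1 regions of a chromosome in each of 10 equal bins of its extent, for regions called in both replicates and in neither, with the central 50% shaded. Bin 6 of V holds 19 of 72 members and 40 of 199 regions called in neither. The 26 members of chromosome I include none in the last 2 bins, which hold 20 and 30 of its 299 regions called in neither.

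The 2 regions that the authors' comment lines name as altered by the change of build were both members. II:5661015-5662219 was 1206 bp long before and 1205 bp after it, and scored 18.97 in the combined list, 5.57 in replicate 1 and 11.2 in replicate 2. III:835501-836144 was 643 bp long before and 644 bp after, with scores of 8.96, 4.25 and 3.96.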

How the data were processed

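The authors deposited 3 lists of regions and a sample table. Their caller, per the file headers, was PeakSeq, which compares ChIP with input, and coordinates are WS220 after a liftover. Each region has a q-value, deposited by the authors, all under 0.01, and the score is its −log10. The sample table, also deposited, gives read counts per run (36 bp reads) and names 1 list per ChIP replicate, the combined list for merged alignments and 1 merged input. It names no aligner or caller version.

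Lists were matched at an overlap of 1 bp with pandas 2.3.3, and bedtools 2.31.1 found the same number of members, 442. The code was tested on simulated lists. Where a member spans several replicate regions, the highest replicate score is used. Shares carry 95% Wilson intervals and medians exact binomial intervals (scipy 1.17.1), which cover counting error only and take regions as independent. No test was run, since regions are not replicates.

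The regions named are the 3 per chromosome with the highest smaller replicate score, the lowest-scoring members and highest-scoring regions in neither list, the widest, narrowest and most unequal members, those split in a list, the closest pairs and the densest window. The groups of 3, the sum of scores, the region without a shared base and the liftover regions were chosen after their values were seen. The members and all lists were chosen with earlier results of these data known.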

Additional observations from a re-analysis of the deposited data

How the results depend on the processing

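Of 52 alternative values, 34 stayed within the interval of the reported value, or within 1.5 times the count of members. With scores of 3 or more required in all lists, 194 members were left, with a median width of 449.5 bp and a median score of 11.1; 34.5% lay on X, 55.1% of the autosomal ones in the centre and 9.79% within 1 kb of another region, and the median gap was 11470 bp. That setting removes regions by construction. With the replicate 2 list cut to the length of replicate 1, the median width was 408 bp and the median score 8.72. When 1 replicate was left out, the count ranged from 581 to 1156, the median width from 302.5 to 363 bp, the median score from 4.63 to 6.18 and the share on X from 22.7% to 27.2%, since the rule then asks for 1 list only. A narrower centre, the middle one of 3 equal parts, held 44.5% of autosomal members and 44.2% of autosomal regions called in neither. Within 500 bp of another region lay 7.01% of members, and within 2 kb 32.4%. A reciprocal overlap of 50% (349 members), leaving out chromosome I and leaving out regions under 50 bp moved none of the 7 values of the members. The contrast with regions called in neither is not covered by that count. Without chromosome I, X held 29.1% of members and 26.3% of those regions, compared with 27.4% and 20.7% as reported. The planned counts of gene starts and E-boxes were not run, since neither sequence nor gene models in WS220 coordinates were used. No paired analysis was possible because the values are regions called against 1 merged input, which leaves no input replicate to set beside a ChIP replicate. The replicate 1 list rests on 873921 uniquely mapped reads, so a region missing from it was not called at that depth, which does not show it unbound.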
